A study of Mus musculus with 13 samples.

Results

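The genes described here are 38 genes of homologous recombination, of the Fanconi anemia pathway and of the damage checkpoint that acts beside them. They were chosen as a list of symbols and looked up in the table of counts per gene, which held 20054 genes. All 38 were present, and all 38 passed the filter on low counts that 16599 genes passed. RNA of the whole esophagus was sequenced from mice after 8 weeks of the carcinogen 4-nitroquinoline 1-oxide (4-NQO) and another 8 weeks of its vehicle, propylene glycol, a stage the labels call pre-cancer. The 7 dblGATA libraries came from mice with a germline deletion of a site in a Gata1 enhancer that GATA factors bind and without which eosinophils do not develop. The 6 WT libraries came from C57/BL6 mice given the same carcinogen and vehicle, so no group without 4-NQO was compared here. The mutation is carried by every cell of the animal, and whole tissue mixes epithelium, muscle and other cell types. Whether every library stands for an animal of its own is not stated in the labels, so p-values below measure the spread between libraries, part of which may be technical.

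Homologous recombination repairs a broken chromosome by copying the intact sister, and therefore works mainly in cells that have begun to replicate their DNA. The MRE11-RAD50-NBN complex finds the broken end, nucleases trim it to single-stranded DNA, and BRCA1, PALB2 and BRCA2 prepare it for strand exchange, which the XRCC2 and XRCC3 complexes and the RAD54 motors assist. The Fanconi pathway deals with crosslinks between the strands: a core ubiquitin ligase with the E2 enzyme UBE2T marks the FANCD2-FANCI pair, which then calls in nucleases. The kinases ATM and ATR signal the damage to CHEK2 and CHEK1 and hold the cell cycle. Inherited loss of several of these genes in people causes Fanconi anemia, in which squamous carcinoma of the mouth and upper digestive tract is frequent.

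Promoters are shown first because genes of this kind are known to be transcribed in waves of the cell cycle, and the letters bound by E2F factors, by CHR-binding complexes and by NF-Y can be looked for in them. Of the 38 genes, 31 had an entry among the RefSeq promoters of build GRCm38.p6 (300 bases, 250 before the start and 50 from it on), and 3 of them had 2 promoters. Rad51d, Xrcc2, Rad54b, Fancd2, Rad50, Nbn and Exo1 had no entry. The search covered both strands for the E2F letters TTTCCCGC, TTTGGCGC, TTTCGCGC and TTTGCCGC, the CHR letters TTTGAA and TTCGAA, and CCAAT. The promoters below belong to Fanci (ENSMUSG00000039187.17), Chek2 (ENSMUSG00000029521.8), Topbp1 (ENSMUSG00000032555.11) and Brca1 (ENSMUSG00000017146.13). The first 3 had the smallest p-values among genes with a promoter entry, and Brca1 had, of the genes higher in dblGATA, the smallest p for a slope on a score of proliferation genes. Each is written 5′ to 3′ along the strand of its gene, and capitals mark the matched letters. No 2 matches overlapped in these 4 promoters.
Fanci, chr7:79392088-79392387, plus strand: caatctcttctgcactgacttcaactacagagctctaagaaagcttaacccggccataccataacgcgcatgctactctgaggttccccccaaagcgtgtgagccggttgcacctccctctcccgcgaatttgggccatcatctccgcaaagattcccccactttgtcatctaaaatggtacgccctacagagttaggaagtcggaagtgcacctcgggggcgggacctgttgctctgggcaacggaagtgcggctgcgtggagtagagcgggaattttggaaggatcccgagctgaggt
Chek2, chr5:110839733-110840032, plus strand: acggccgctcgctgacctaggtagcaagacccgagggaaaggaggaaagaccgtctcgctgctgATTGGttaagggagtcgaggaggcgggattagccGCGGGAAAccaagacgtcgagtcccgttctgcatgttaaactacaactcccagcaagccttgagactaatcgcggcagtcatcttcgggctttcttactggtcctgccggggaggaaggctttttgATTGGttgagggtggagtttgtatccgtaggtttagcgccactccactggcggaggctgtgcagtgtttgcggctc
Topbp1, chr9:103305077-103305376, plus strand: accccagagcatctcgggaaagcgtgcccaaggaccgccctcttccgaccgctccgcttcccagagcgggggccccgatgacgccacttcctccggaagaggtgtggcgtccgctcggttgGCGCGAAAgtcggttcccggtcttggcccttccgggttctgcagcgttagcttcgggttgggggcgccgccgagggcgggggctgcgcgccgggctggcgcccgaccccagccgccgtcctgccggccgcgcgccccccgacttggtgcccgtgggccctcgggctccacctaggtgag
Brca1, chr11:101551906-101552205, minus strand: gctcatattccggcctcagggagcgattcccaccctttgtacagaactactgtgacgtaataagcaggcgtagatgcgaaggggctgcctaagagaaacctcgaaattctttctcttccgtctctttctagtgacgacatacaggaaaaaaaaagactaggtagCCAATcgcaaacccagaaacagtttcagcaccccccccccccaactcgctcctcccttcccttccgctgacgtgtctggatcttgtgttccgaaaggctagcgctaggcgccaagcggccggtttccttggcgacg

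The Chek2 promoter held GCGGGAAA, an E2F match read from the other strand, 152 bases before the start, and ATTGG, which is CCAAT read from the other strand, at 186 and 26 bases before it. Topbp1 had GCGCGAAA 129 bases before the start. Brca1 had CCAAT 86 bases before the start and no E2F or CHR letters in this window, and Fanci had none of the 3 motifs there. Over the 31 genes, E2F letters stood in 6 (19.4%, 95% Wilson interval 9.19% to 36.3%), against 4.18% of 12833 genes tested for expression that had a promoter and 2.26% of all 32851 promoters. CCAAT stood in 19 of 31 (61.3%, 95% Wilson interval 43.8% to 76.3%), against 42.0% of those genes and 37.4% of all promoters. The lower end of that interval lies close to the 42.0%. CHR letters stood in 5 of 31 (16.1%, 95% Wilson interval 7.09% to 32.6%), against 17.2% and 19.2%. Of the 9 genes higher in dblGATA that had a promoter, 2 held E2F letters, 7 held CCAAT and 0 held CHR letters. A match is a description of the sequence and does not show that a factor binds there.

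Libraries summed to between 66339087 and 98195869 counts, and a single gene of the 38 had 85 to 5538 counts in a library. Levels are CPM, counts scaled to a common library total, after TMM scaling, and 3 counts, the floor for a level, came to 0.0299 to 0.0526 CPM. Rn18s, the RNA of the small ribosomal subunit, took 10.1% of the counts in WT 4 and 16.9% in WT 6, against 0.587% to 3.24% in the other 11 libraries. Results are therefore also given without WT 4 and WT 6. Ccr3, the eotaxin receptor of eosinophils, checked the genotype, with 0.0244, 0.106 and 0.387 CPM as the lowest, median and highest dblGATA library against 0.251, 0.666 and 1.12 CPM in WT (log2 fold change -2.29 ± 0.48, SE, adjusted p by edgeR = 0.0179). The groups overlapped. Summed CPM of 8 eosinophil markers was 1.05, 1.86 and 4.78 in dblGATA (lowest, median and highest library), against 2.12, 3.80 and 20.3 in WT. The highest value was that of WT 3, and the next WT library had 6.88. Ear6 was at 0 in all 7 dblGATA libraries and at a median of 0 in WT.

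The direction of difference over the 38 genes was upward in dblGATA. At an adjusted p under 0.05 over all genes tested (edgeR's quasi-likelihood test), 11 of the 38 were higher in dblGATA and 0 were lower, where 7.1% of all genes tested were higher and 6.39% were lower. At an unadjusted p under 0.05, 19 were higher and 1, Mus81, was lower, where 16.6% of all genes tested were higher and 15.7% were lower. DESeq2 placed 12 higher and 1 lower, where it placed 9.2% of all genes higher and 9.05% lower. The log2 fold change, dblGATA over WT, was positive for 34 of 38, with a median of 0.23 against -0.00 for all genes tested. It ran from -0.18 for Mus81 to 0.58 for Fanci, so by the estimates of this fit no gene of the list differed by as much as 1.5 times. Some other estimates were larger, such as 0.63 for Fanci with edgeR without WT 2. In the authors' deposited table Exo1 had 0.67 ± 0.33 (log2, SE). Fanci and Chek2 were the 2 genes with every dblGATA library above every WT library, where 1.95% of all genes tested had such a separation. In whole tissue, more cells that use these genes and more RNA per cell cannot be told apart.

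**Figure D1:**
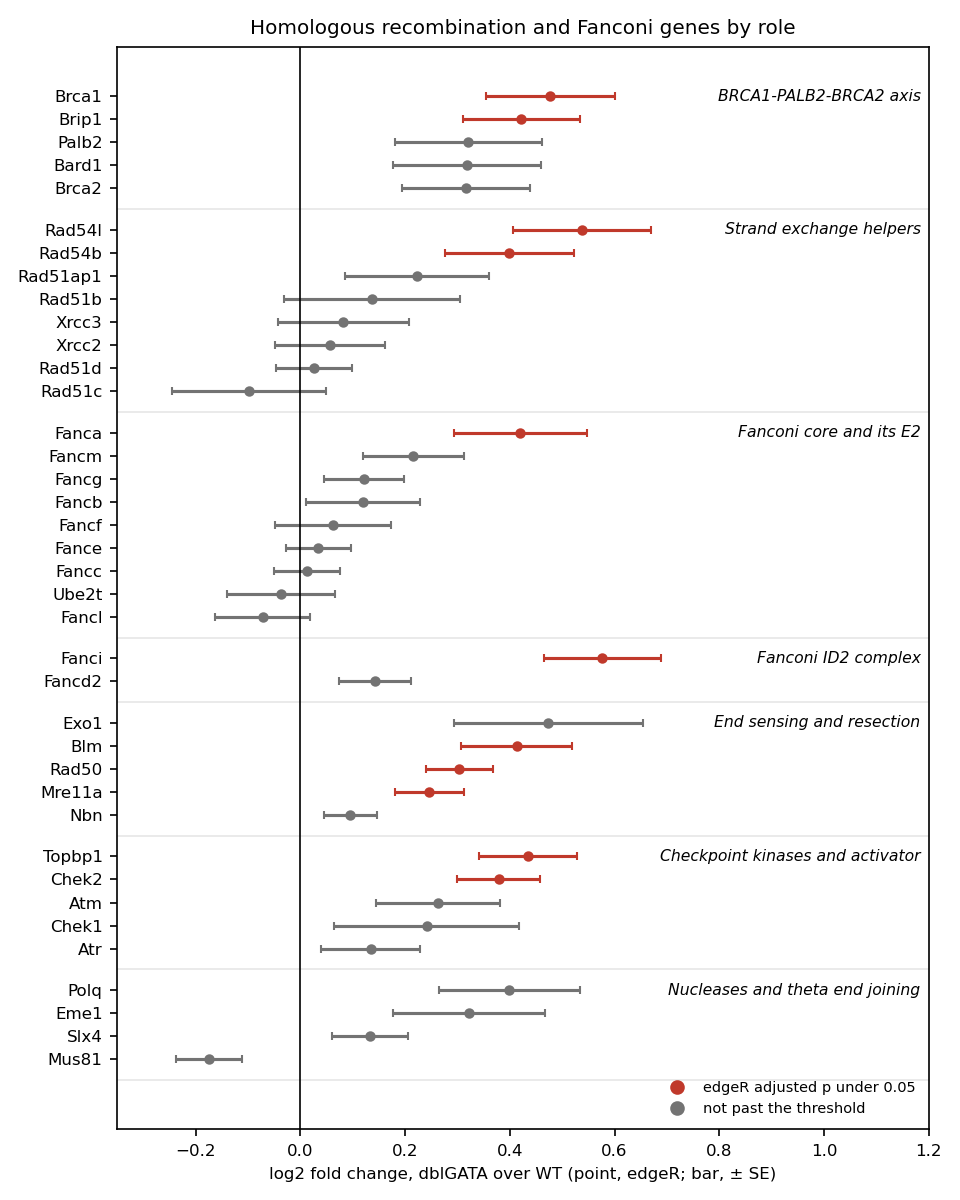
Log2 fold change of each of the 38 genes, dblGATA over WT, on the horizontal axis, as the edgeR estimate (point) with its standard error (bar), with genes grouped by role down the page and red for adjusted p under 0.05. The 11 red points lie between 0.25 for Mre11a and 0.58 for Fanci, and Mus81 at -0.18 lies farthest to the left.

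Of the BRCA1-PALB2-BRCA2 group, all 5 genes had positive fold changes (median 0.32) and 2 rose. Brca1, a ubiquitin ligase subunit that steers breaks toward homologous recombination, had 5.17, 6.12 and 8.32 CPM as the lowest, median and highest of 7 dblGATA libraries, against 3.87, 4.55 and 5.57 CPM in 6 WT libraries. Of the dblGATA libraries, 6 lay above every WT library, and only dblGATA 1 reached into the WT range. The log2 fold change of Brca1 was 0.48 ± 0.12 (SE, adjusted p by edgeR = 0.0278), and 0.37 ± 0.13 without WT 4 and WT 6. The call of Brca1 was lost without WT 4, WT 6, dblGATA 3, dblGATA 5 or dblGATA 7, each left out alone, with adjusted p of 0.0505 to 0.0691. Brip1, the helicase that binds BRCA1 and is also known as FANCJ, had 4.51, 4.84 and 5.78 CPM in dblGATA, against 3.02, 3.71 and 4.78 CPM in WT. Only WT 2 reached into the dblGATA range. For Brip1 the log2 fold change was 0.42 ± 0.11 (SE, adjusted p by edgeR = 0.0295), and 0.34 ± 0.12 without WT 4 and WT 6. The call of Brip1 was lost without WT 1, WT 4, WT 6 or dblGATA 3, 4, 5 or 7, with adjusted p of 0.0508 to 0.0724. Palb2, the bridge between BRCA1 and BRCA2, Brca2, which acts at the strand exchange step, and Bard1, the partner ligase subunit of BRCA1, all had a log2 fold change of 0.32 and did not pass the test (adjusted p by edgeR = 0.130, 0.0922 and 0.136).

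Of the genes that assist strand exchange, 7 of 8 had positive fold changes (median 0.11) and 2 rose, both of them RAD54 motors. Rad54l, a DNA translocase that drives strand invasion, had 3.57, 4.28 and 5.78 CPM in dblGATA, against 2.72, 3.04 and 3.79 CPM in WT. The 6 dblGATA libraries other than dblGATA 1 lay above every WT library. Rad54l had a log2 fold change of 0.54 ± 0.13 (SE, adjusted p by edgeR = 0.0243), and 0.46 ± 0.15 without WT 4 and WT 6. The call of Rad54l was lost without WT 4, WT 6, dblGATA 5 or dblGATA 7, with adjusted p of 0.0535 to 0.0645. Rad54b, its relative, had 3.19, 4.20 and 4.52 CPM in dblGATA, against 2.37, 3.10 and 3.83 CPM in WT. Here dblGATA 3 was the library that reached into the WT range. The log2 fold change of Rad54b was 0.40 ± 0.12 (SE, adjusted p by edgeR = 0.0461), and 0.39 ± 0.15 without WT 4 and WT 6. The Rad54b call was kept in 2 of 13 fits that left out a library, those without WT 2 or without dblGATA 3, and the adjusted p of the other 11 fits was 0.0503 to 0.0931. Rad51b, Rad51c, Rad51d, Xrcc2 and Xrcc3, whose products form small complexes with each other, did not pass the test. Rad51b, Xrcc3, Xrcc2 and Rad51d had log2 fold changes of 0.14 ± 0.17, 0.08 ± 0.13, 0.06 ± 0.10 and 0.03 ± 0.07, and Rad51c had -0.10 ± 0.15 (SE). Rad51ap1, which stimulates strand pairing, stood at 0.22 ± 0.14 (SE, adjusted p by edgeR = 0.276).

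The Fanconi core ligase and its E2 enzyme had the lowest median log2 fold change of the 7 roles, 0.06 over 9 genes, and 1 gene rose. Fanca, a scaffold subunit of the core, had 3.97, 4.85 and 6.01 CPM in dblGATA, against 3.25, 3.52 and 4.83 CPM in WT. The highest WT value, in WT 2, lay among the dblGATA libraries, and the other 5 WT libraries lay below all of them. The log2 fold change of Fanca was 0.42 ± 0.13 (SE, adjusted p by edgeR = 0.0437), and 0.33 ± 0.14 without WT 4 and WT 6. The call was kept in 2 of 13 fits that left out a library, those without WT 2 or without dblGATA 1, and the adjusted p of the other 11 fits was 0.0503 to 0.0999. Fancm, the translocase that brings the core to DNA, had a log2 fold change of 0.22 ± 0.10 (SE, adjusted p by edgeR = 0.139). Fancg and Fancb, subunits of the core, both stood at 0.12, and Fancf, Fance and Fancc at 0.06, 0.03 and 0.01. Fancl, the catalytic ligase subunit, was at -0.07 ± 0.09 and Ube2t, its E2 enzyme, at -0.04 ± 0.10 (SE). None of these 8 passed the test with edgeR.

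The ID2 complex, the substrate of that ligase, divided by the edgeR call. Fanci had 4.98, 5.81 and 6.96 CPM in dblGATA, against 3.16, 4.04 and 4.83 CPM in WT. The lowest dblGATA library, dblGATA 1, lay above the highest WT library, WT 2. The difference of Fanci amounted to 0.58 ± 0.11 on the log2 scale (SE, adjusted p by edgeR = 0.0170), and to 0.47 ± 0.11 without WT 4 and WT 6. The call of Fanci was kept in all 13 fits that left out a library, with adjusted p of 0.00744 to 0.0480. Fancd2, its partner on DNA, had 6.96, 7.22 and 7.72 CPM in dblGATA, against 5.75, 6.81 and 7.15 CPM in WT. The groups overlapped between 6.96 and 7.15 CPM. On the log2 scale Fancd2 differed by 0.14 ± 0.07 (SE, adjusted p by edgeR = 0.171). In the authors' deposited table both genes were called higher, with Fancd2 at 0.24 (log2, adjusted p = 0.0174).

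Among the 5 genes of end sensing and resection, all fold changes were positive (median 0.30) and 3 rose. Rad50, the long coiled-coil ATPase of the break sensor, had 29.3, 30.7 and 31.8 CPM in dblGATA, against 21.3, 24.1 and 29.7 CPM in WT. WT 5 was the single WT library inside the dblGATA range, and the dblGATA libraries lay within 3 CPM of each other. The log2 fold change of Rad50 was 0.30 ± 0.06 (SE, adjusted p by edgeR = 0.0179), and 0.24 ± 0.07 without WT 4 and WT 6. It was kept in all 13 fits that left out a library, with adjusted p of 0.0127 to 0.0482. Mre11a, the nuclease of the complex, had 20.6, 23.5 and 24.0 CPM in dblGATA, against 16.2, 19.6 and 22.1 CPM in WT. Only dblGATA 1 and WT 5 reached into the range of the other genotype. Mre11a differed by 0.25 ± 0.07 on the log2 scale (SE, adjusted p by edgeR = 0.0304), and 0.19 ± 0.06 without WT 4 and WT 6. The Mre11a call was lost without WT 1, WT 4, WT 6 or dblGATA 2, 3, 4, 5 or 7, with adjusted p of 0.0508 to 0.0704. Nbn, the third subunit and the docking site for ATM, had a log2 fold change of 0.10 ± 0.05 (SE, adjusted p by edgeR = 0.199).

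Blm, the helicase that works with long-range resection and dissolves joined intermediates, had 4.35, 5.88 and 6.43 CPM in dblGATA, against 3.76, 4.09 and 4.56 CPM in WT. The dblGATA 1 library lay among the WT values, and the other 6 lay above them. Blm had a log2 fold change of 0.41 ± 0.11 (SE, adjusted p by edgeR = 0.0272), and 0.36 ± 0.12 without WT 4 and WT 6. The Blm call was lost without WT 1, WT 4, WT 6, dblGATA 5 or dblGATA 7, with adjusted p of 0.0521 to 0.0681. Exo1, the exonuclease of long-range resection, had 2.76, 3.44 and 5.10 CPM in dblGATA, against 2.12, 2.65 and 3.50 CPM in WT. In dblGATA 4 and dblGATA 5 it stood at 5.10 and 4.99 CPM, well above the other 5 dblGATA libraries. Its log2 fold change of 0.47 ± 0.18 did not pass the test (SE, adjusted p by edgeR = 0.0892).

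Of the 5 checkpoint kinases and activators, all had positive fold changes (median 0.26) and 2 rose. Chek2, the effector kinase downstream of ATM, had 9.84, 11.1 and 13.3 CPM in dblGATA, against 8.03, 8.81 and 9.53 CPM in WT. The genotypes did not overlap. On the log2 scale Chek2 differed by 0.38 ± 0.08 (SE, adjusted p by edgeR = 0.0179), 0.33 ± 0.09 without WT 4 and WT 6, and its call was kept in all 13 fits that left out a library (adjusted p of 0.00819 to 0.0486). Topbp1, the activator of ATR, had 47.0, 51.0 and 61.6 CPM in dblGATA, against 32.3, 38.4 and 49.6 CPM in WT. WT 2 alone of the WT libraries reached into the dblGATA range. Its log2 fold change was 0.43 ± 0.09 (SE, adjusted p by edgeR = 0.0190), and 0.33 ± 0.09 without WT 4 and WT 6. The Topbp1 call was kept in 12 of 13 fits that left out a library and missed the threshold without WT 4 (adjusted p = 0.0513). The apical kinases Atm and Atr had log2 fold changes of 0.26 ± 0.12 and 0.13 ± 0.09, and Chek1, the effector kinase downstream of ATR, had 0.24 ± 0.18 (SE, adjusted p by edgeR = 0.139, 0.340 and 0.364).

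No gene of the last group, structure-selective nucleases and polymerase theta, passed the test. Polq, which encodes the polymerase that joins ends by short homologies where homologous recombination is lost, had 2.63, 3.47 and 4.13 CPM in dblGATA, against 2.23, 2.49 and 3.16 CPM in WT. The ranges overlapped, with 4 dblGATA libraries above every WT library. Its log2 fold change was 0.40 ± 0.13 (SE, adjusted p by edgeR = 0.0611), and DESeq2 gave an adjusted p of 0.0244. Mus81, the catalytic subunit of a nuclease that cuts branched DNA, had 13.9, 15.8 and 17.3 CPM in dblGATA, against 15.5, 18.0 and 19.0 CPM in WT. WT 2, the lowest WT library, lay inside the dblGATA range, and the other 5 WT libraries lay above every dblGATA library. Its log2 fold change was -0.18 ± 0.06 (SE, adjusted p by edgeR = 0.0751), and DESeq2 gave an adjusted p of 0.0332. Eme1, the partner subunit that MUS81 needs, was at 0.32 ± 0.15, and Slx4, the scaffold that holds several nucleases, at 0.13 ± 0.07 (SE, adjusted p by edgeR = 0.141 and 0.220).

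**Figure D2:**
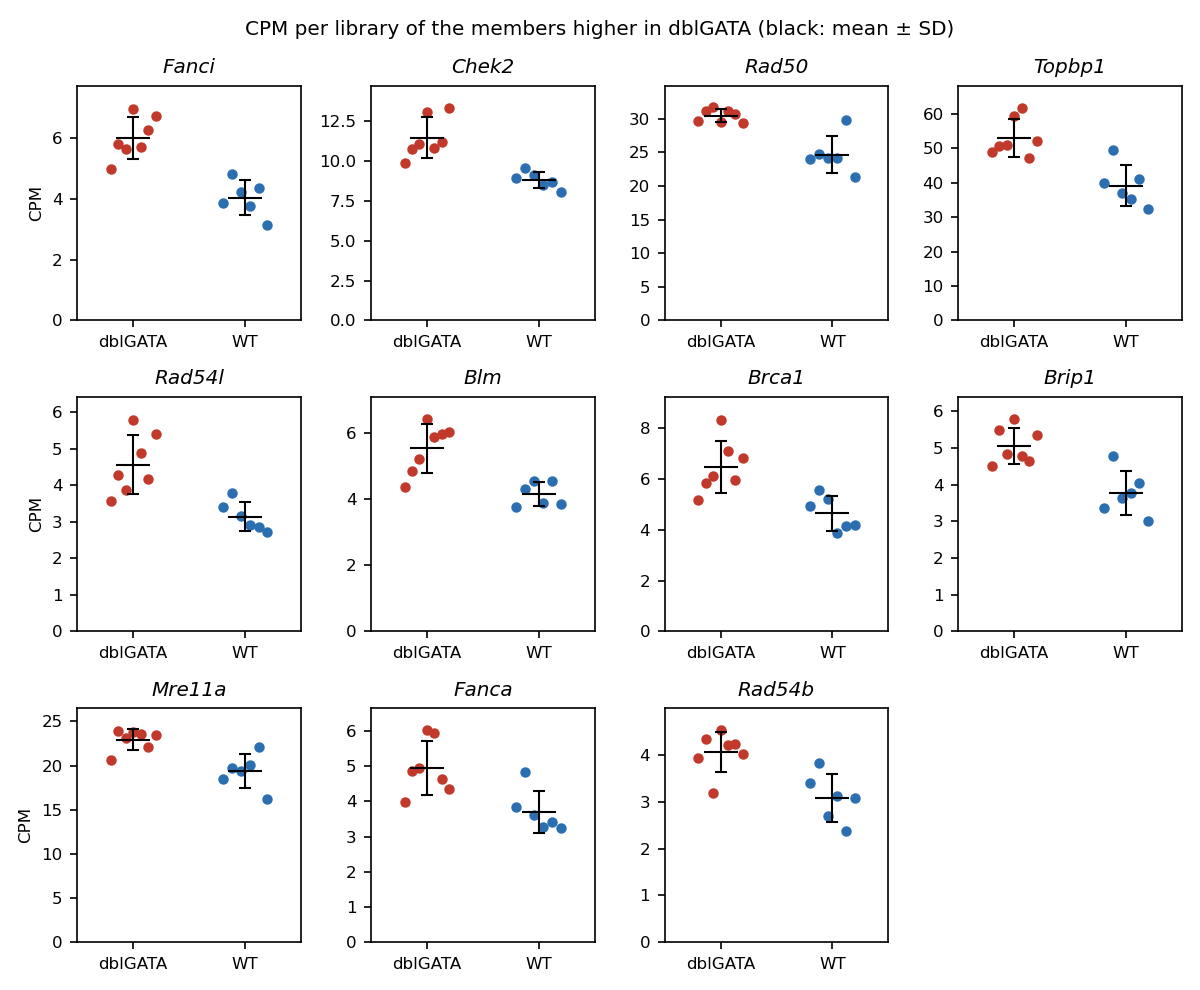
CPM per library (linear axis from 0) of the 11 genes higher in dblGATA, with 7 dblGATA libraries in red left of 6 WT libraries in blue and the mean ± SD in black, ordered by p-value. Fanci and Chek2 show no overlap between genotypes, and in the other 9 panels 1 or more libraries reach into the range of the other genotype.

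The same libraries were high or low for many of the 38 genes. In dblGATA, dblGATA 4 was the highest library for 15 genes and dblGATA 1 the lowest for 18. In WT, WT 2 was the highest library for 25 of the 38 and WT 6 the lowest for 11. The same counts over all genes tested are not given here, so this is not shown to be particular to the 38. Without WT 2, 16 of the 38 were higher in dblGATA, where 11.5% of all genes tested were, and Mus81 was lower (adjusted p by edgeR = 0.0204), where 11.4% of all genes tested were. The share over all genes thus also rose when WT 2 was left out. The genes added without WT 2 were Brca2, Palb2, Exo1, Chek1 and Polq. Without WT 4 the number higher was 3, where 1.5% of all genes tested were higher. It was 4 without WT 6, dblGATA 5 or dblGATA 7, where 1.33%, 1.92% and 1.87% of all genes were higher. It was 6 without WT 1, and 7 without dblGATA 3 or dblGATA 4, where 4.18%, 2.55% and 5.31% of all genes were higher. In each of these 7 fits the share over all genes was below the 7.1% found with all libraries. In these fits the count thus fell over the whole table and not in the 38 alone. The number of the 38 higher was 8 without dblGATA 2 and 9 without WT 3 or WT 5, where 5.78%, 5.69% and 6.24% of all genes were. It was 9 without dblGATA 6, where the share over all genes rose to 7.94%, and 11 without dblGATA 1, where it was 8.72%. Without both WT 4 and WT 6, 0 of the 38 and 0 of all genes tested passed with edgeR, and 11 of the 38 were higher at an unadjusted p under 0.05, where 9.92% of all genes tested were. DESeq2 without these 2 libraries placed 5 of the 38 and 3.12% of all genes tested higher, the 5 being Fanci, Chek2, Rad50, Topbp1 and Rad54l (adjusted p = 0.0042, 0.0173, 0.0191, 0.0249 and 0.0458).

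**Figure D3:**
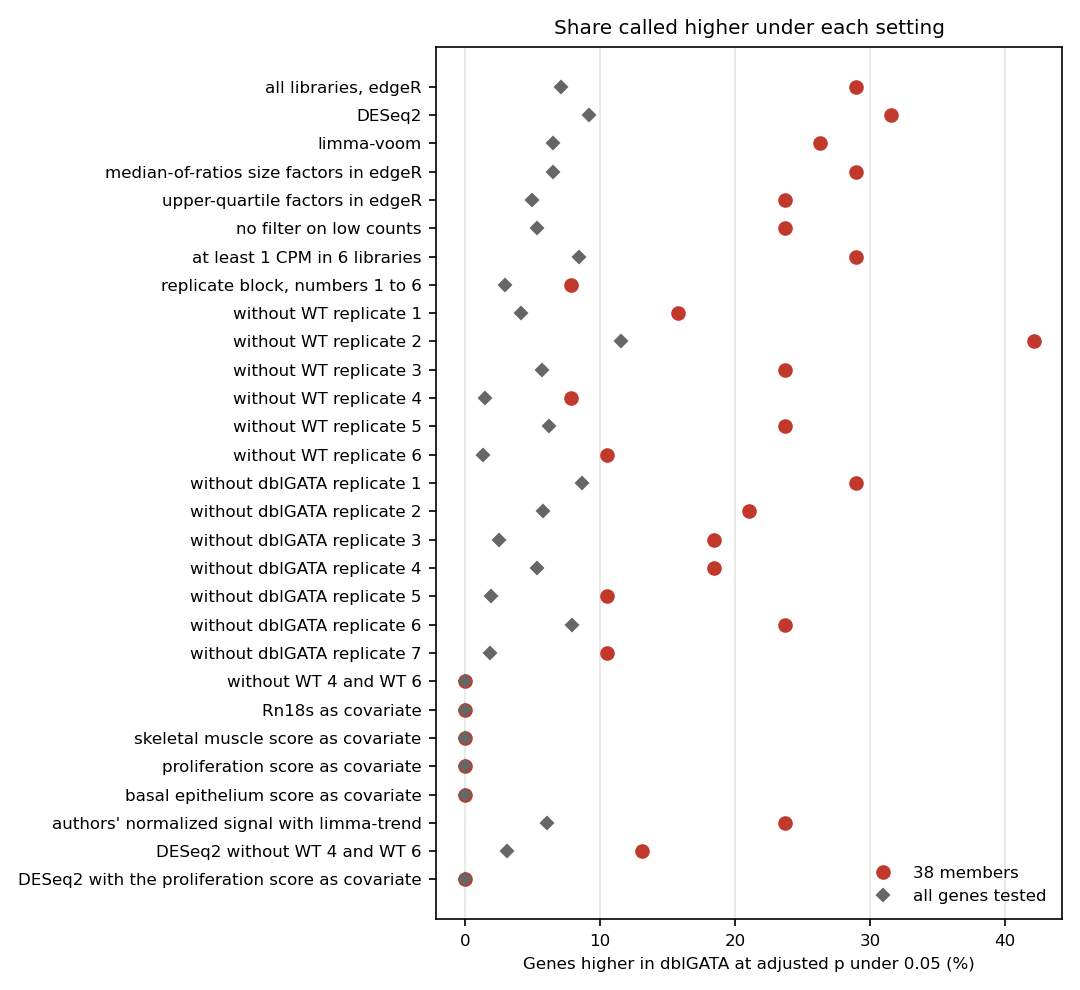
Percentage higher in dblGATA at adjusted p under 0.05 (horizontal axis) under each way of processing (rows), for the 38 genes (red circles) and for all genes tested (grey diamonds). The main comparison stands at 28.9% of the 38 against 7.1% of all genes, and both are at 0 with edgeR without WT 4 and WT 6 and with each of the 4 covariates.

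Partner genes, whose products act together, were compared by their ratio within each library, a measure that library scaling hardly changes. Of 16 pairs, 5 differed between genotypes at an adjusted p under 0.05 (exact two-sided permutation test over all 1716 regroupings of 13 libraries, adjusted over the 16 pairs). The pairs share genes with the comparison above, so these ratios show which partner moved more and are not independent of it. No share over pairs of other genes is given here, so 5 of 16 is not shown to be particular to these partners. Nbn over Rad50 had a log2 ratio of -0.30 ± 0.05 in dblGATA and -0.08 ± 0.12 in WT (SD, exact p = 0.00233, adjusted p = 0.0326). Fancd2 over Fanci was 0.28 ± 0.18 in dblGATA and 0.71 ± 0.18 in WT (SD, exact p = 0.00408, adjusted p = 0.0326). In both pairs the first gene fell relative to its partner, and dblGATA and WT libraries overlapped.

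Eme1 over Mus81 was -2.54 ± 0.26 in dblGATA and -3.01 ± 0.24 in WT (SD, exact p = 0.00758, adjusted p = 0.0326). Fanca over Fancg was -1.14 ± 0.20 in dblGATA and -1.43 ± 0.13 in WT (SD, exact p = 0.00816, adjusted p = 0.0326). Atr over Topbp1 was -1.65 ± 0.14 in dblGATA and -1.35 ± 0.19 in WT (SD, exact p = 0.0105, adjusted p = 0.0336). Eme1 and Fanca were thus higher in dblGATA relative to their partner, and Atr was lower relative to Topbp1. The ratios were not adjusted for the proliferation score, which is described below. The remaining 11 pairs did not pass, among them Brca1 over Brca2 (difference 0.15, exact p = 0.198) and Mre11a over Rad50 (difference -0.06, exact p = 0.160). The 5 pairs kept their direction but not their adjusted p without WT 4 and WT 6, where the smallest was 0.0727, nor with the authors' normalized signal, where the smallest was 0.0513. The number of pairs that passed was 0 without WT 4, without WT 6 or without dblGATA 5, 2 without WT 5 or dblGATA 4, and 3 without WT 3 or dblGATA 3.

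**Figure D4:**
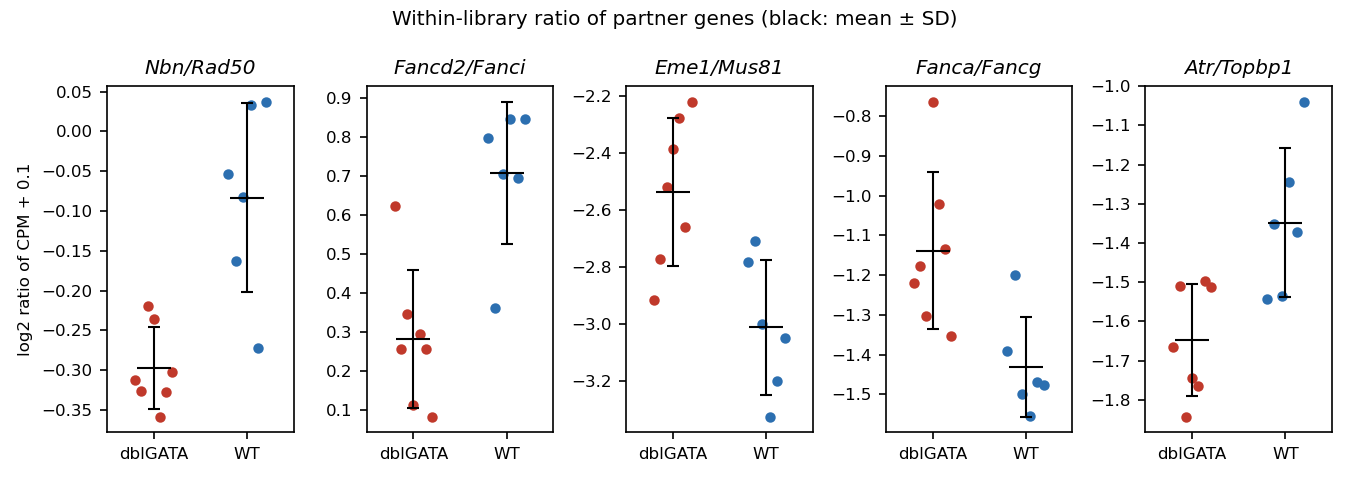
Log2 ratio of CPM + 0.1 of the 5 partner pairs that passed, per library (vertical axis, scaled per panel), with dblGATA in red left of WT in blue and the mean ± SD in black. Nbn/Rad50, Fancd2/Fanci and Atr/Topbp1 are lower in dblGATA, Eme1/Mus81 and Fanca/Fancg are higher, and some libraries overlap in every panel.

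Proliferation genes also rose in dblGATA, where 7.1% of all genes tested were higher and 6.39% were lower. Of 30 genes of DNA replication and mitosis, none of them among the 38, 20 rose and 0 fell (median log2 fold change 0.41), among them Aurkb (0.44 ± 0.07), Cdc20 (0.56 ± 0.09), Top2a (0.65 ± 0.11) and Kif11 (0.53 ± 0.09, SE, adjusted p by edgeR = 0.0137 for the first 3 and 0.0154 for Kif11). Their summed CPM was 895 to 1166 in dblGATA and 618 to 815 in WT, and the score made of their mean log2 CPM was 4.35 to 4.76 in dblGATA and 3.91 to 4.27 in WT. The genotypes did not overlap in this score, so an effect of genotype and one of proliferation cannot be told apart in these libraries. The dblGATA 4 library had the highest score, and WT 6 and WT 4, the libraries rich in Rn18s, had the lowest, 3.91 and 3.96.

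Within genotypes, the slope on this score was positive at an unadjusted p under 0.05 for 12 of the 38 genes, where 5.51% of all genes tested had such a slope. No gene of the 16599 passed after adjustment (edgeR with genotype in the model, lowest adjusted p = 0.135). Without WT 4 and WT 6 the number was 7 of 38 (18.4%), against 4.06% of all genes. Per unit of score, Exo1 had a log2 slope of 1.81 ± 0.43, Brca1 of 1.28 ± 0.28 and Rad54l of 1.25 ± 0.33 (SE). Rad50 had a slope of 0.11 ± 0.24 and Atm one of -0.22 ± 0.43 (SE). These 5 genes were chosen after their slopes were seen, and none passed after adjustment (adjusted p by edgeR = 0.202 for Brca1 and 0.238 for Exo1 and Rad54l).

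With the score in the model, the median log2 fold change of the 38 genes was 0.04, and 0 of the 38 and 0 of all genes tested passed with edgeR. At an unadjusted p under 0.05, 1 of the 38 was higher in dblGATA, where 2.99% of all genes tested were, a share near that background. The fold change of Brca1 was then -0.02 ± 0.13, that of Fanci 0.20 ± 0.15 and that of Rad50 0.26 ± 0.11 (log2, SE), against 0.48, 0.58 and 0.30 without the score. None of these 3 genes passed the test with the score in the model. Of the partner pairs, Eme1 and Mus81 then stood at -0.14 and -0.14, and Fanca and Fancg at 0.02 and 0.01. Fancd2 and Fanci stood at 0.08 and 0.20, Atr and Topbp1 at 0.02 and 0.10, and Nbn and Rad50 at 0.12 and 0.26 (log2). The ratios themselves were not tested with the score. Markers of other cell types also moved with genotype, where 7.1% of all genes tested were higher and 6.39% were lower without a score. Basal epithelium markers rose in 7 of 9 cases (median log2 fold change 0.61), with a summed CPM of 6471 to 9776 in dblGATA and 4769 to 6891 in WT. The basal score, their mean log2 CPM, was 8.64 to 9.03 in dblGATA and 8.08 to 8.47 in WT. The genotypes did not overlap in this score either, so genotype and basal score cannot be told apart in these libraries. Skeletal muscle markers fell in 5 of 12 cases (median -0.55), with a summed CPM of 17948 to 37517 in dblGATA and 23814 to 44792 in WT. With the basal score in the model the median of the 38 was 0.07, and with the muscle score it was 0.09. In both models 0 of the 38 and 0 of all genes passed. Squamous differentiation markers rose in 2 of 12 cases (Tgm1 and Sprr1b), and of 9 T and B lymphocyte markers 0 passed, with Cd4 nearest (log2 fold change 0.46 ± 0.25, SE, adjusted p by edgeR = 0.210).

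**Figure D5:**
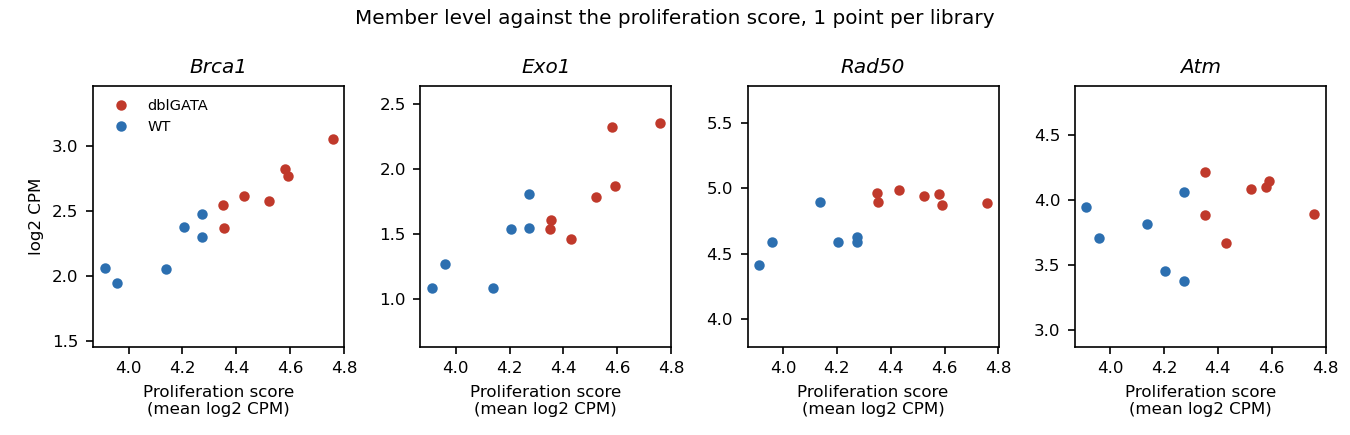
Log2 CPM of Brca1, Exo1, Rad50 and Atm (vertical axis) against the proliferation score (horizontal axis, mean log2 CPM of 30 genes), 1 point per library, dblGATA in red and WT in blue. Brca1 and Exo1 climb with the score within each genotype, Rad50 is nearly level across dblGATA libraries, and the scores of the 2 genotypes do not overlap.

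Other genes of repair were counted from lists that hold none of the 38. Of all genes tested, 7.1% were higher in dblGATA and 6.39% were lower. Of 44 further genes of homologous recombination and crosslink repair, 7 rose and 1 fell (median log2 fold change 0.11). Rbbp8, known as CtIP, the cofactor of MRE11 that starts resection, had 33.2, 39.1 and 42.7 CPM in dblGATA, against 21.9, 25.0 and 35.3 CPM in WT (log2 fold change 0.53 ± 0.11, SE, adjusted p by edgeR = 0.0172). Rfwd3, a ubiquitin ligase that acts on proteins on single-stranded DNA, had a log2 fold change of 0.27 ± 0.06 (SE, adjusted p by edgeR = 0.0215). Wrn, the helicase lost in Werner syndrome, had 15.1, 16.5 and 18.6 CPM in dblGATA, against 12.1, 13.4 and 15.9 CPM in WT (0.30 ± 0.07, SE, adjusted p by edgeR = 0.0231). Zswim7, a subunit of the Shu complex, fell, with 5.92, 7.28 and 8.45 CPM in dblGATA against 8.36, 10.3 and 13.3 CPM in WT (-0.54 ± 0.12, SE, adjusted p by edgeR = 0.0212).

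Of 17 partners of the checkpoint kinases, 3 rose and 0 fell (median 0.06). They were Clspn, the adaptor through which ATR reaches CHEK1 (log2 fold change 0.55 ± 0.12), and the phosphatases Cdc25c (0.45 ± 0.12) and Cdc25b (0.27 ± 0.08), which CHEK1 and CHEK2 restrain (SE, adjusted p by edgeR = 0.0189, 0.0272 and 0.0395). Of 17 end-joining genes, which rejoin breaks without a template, 2 rose and 1 fell (median 0.08). These counts lie near the shares over all genes tested, 7.1% higher and 6.39% lower. Xrcc5, the larger Ku subunit, had a log2 fold change of 0.21 ± 0.05, Lig3, a DNA ligase, one of 0.24 ± 0.07, and Paxx, a Ku-binding factor, one of -0.28 ± 0.08 (SE, adjusted p by edgeR = 0.0206, 0.0326 and 0.0346). Zswim7 and Paxx were the genes that fell in these 3 lists.

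In the authors' deposited table, 11 of the 38 were higher in dblGATA at an adjusted p under 0.05 and 0 were lower, where 9.57% of its genes were higher and 8.63% were lower. The calls by edgeR and those in the authors' deposited table shared 8 genes, 72.7% of each set. Blm, Brip1 and Fanca were called with edgeR only, and Atm, Fancd2 and Fancm in the authors' deposited table only. Atm had a log2 fold change of 0.52 in the authors' deposited table (adjusted p = 0.00835) and 0.26 here, and Blm had 0.19 there (adjusted p = 0.444) and 0.41 here. The authors' normalized signal used factors that varied by gene as well as by library, a scaling that was not applied to the counts here. In the authors' deposited pathway table, the entry on the role of BRCA1 in the damage response had a -log10 p of 5.09 and a ratio of 0.312 and listed 8 of the 38 genes. The entry on double-strand break repair by homologous recombination had a -log10 p of 4.06 and a ratio of 0.571 and listed 4 of them, Atm, Brca1, Mre11a and Rad50. By p these 2 entries ranked 64 and 97 of 649. Hereditary breast cancer signaling (-log10 p 7.81, rank 18) and ATM signaling (6.07, rank 46) ranked higher and each listed 7 of the 38. The entry on non-homologous end joining (3.14, rank 135) listed Atm, Mre11a and Rad50.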

How the data were processed

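RNA of whole esophagus was sequenced in 7 dblGATA and 6 WT libraries (stranded, poly-A selected, per the labels' protocols). The authors deposited whole numbers per gene, read here as estimated counts rounded before deposit. This was inferred from the values: the factor between these counts and the deposited normalized signal varied by gene, and lay over 10% from the median of some library for 25.8% of 13122 well-counted genes. The submitters' processing notes name DESeq2 1.34.0. The aligner, the counter and the build used for them are, in the sources used here, not given, and promoter coordinates are those of RefSeq on GRCm38.p6. The log2 fold changes and p-values in the authors' deposited table, and the −log10 p and the ratio, a fraction of pathway genes, in the authors' deposited pathway table, served for description only. The number of unused per-sample columns was 0.

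Libraries held 66339087 to 98195869 counts, and floors of 3 counts cover only counting error. The Wilson intervals on promoter shares reflect the number of genes and not counting error. The filter was filterByExpr (minimum count 10, minimum total 15), and tests were run with edgeR 4.0.16 under R 4.3.3 (TMM, robust quasi-likelihood fit, dblGATA against WT), with Benjamini-Hochberg adjustment over all 16599 genes and a threshold of 0.05. The standard error (SE) of a fold change was derived from its F statistic. Partner ratios used CPM with a pseudocount of 0.1 and exact permutation (scipy 1.17.1). Alternatives were DESeq2 1.42.0, limma 3.58.1 with voom, other size factors, other filters (none, or at least 1 CPM in 6 libraries), the replicate number as a block, each library left out, WT 4 and WT 6 left out, Rn18s, muscle, proliferation or basal scores as covariates, and the authors' normalized signal with limma-trend (pseudocount 1). The slope test and the DESeq2 fits without WT 4 and WT 6 and with the proliferation score were added after seeing the data. The scripts were tested on simulated data. No 2 libraries of a group agreed within sampling noise (lowest chi-square over its degrees of freedom 57.2). The genes and lists were chosen with earlier results of these data known. 1 gene of the list of further recombination genes is not reported here, and that list is counted without it. Values per genotype are given for every called gene, at most 3 per role by p, or the one with the smallest p in a role with none, and up to 4 called genes are named from each other list. Fancd2, Exo1 and Mus81 were added to these after their values were seen, as were the genes used to illustrate slopes and pairs.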

Additional observations from a re-analysis of the deposited data

Results flagged for a closer look

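Of 76 groups (38 genes in each genotype), 3 had a library that stood apart from the rest of its genotype, and chance gives about 1 such group in 20. Palb2 had 3.05 CPM in WT 2, the highest WT library, against 2.19 CPM in the next. Chek1 had 5.45 CPM in WT 2, also the highest WT library, against 3.21 CPM in the next. Nbn had 27.3 CPM in dblGATA 3, the highest dblGATA library, against 25.1 CPM in the next.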

How the results depend on the processing

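The number of the 38 genes higher in dblGATA (11) was within 1.5 times of that count, at 9 to 12, under DESeq2, limma-voom, other size factors, other filters and the authors' normalized signal, and DESeq2 also placed 1 gene lower. The number higher was 3 to 16 when single libraries were left out, with 0 to 1 lower, where 1.33% to 11.5% of all genes were higher. In those fits 0 to 5 partner pairs passed, against 5 with all libraries. With edgeR the number higher was 0 without WT 4 and WT 6, and 0 with Rn18s or the muscle, proliferation or basal score as covariate. In each of these fits 0 of all genes tested passed. The median log2 fold change of the 38 was 0.23 with Rn18s. It was 0.09 with the muscle score, 0.04 with the proliferation score and 0.07 with the basal score. At an unadjusted p under 0.05 with edgeR, 14, 4, 1 and 1 of the 38 were then higher. The shares over all genes were 11.6%, 4.48%, 2.99% and 0.958%. With DESeq2 the number higher was 5 without WT 4 and WT 6, where 3.12% of all genes were higher. It was 0 with the proliferation score, where 0.00997% were. The number of partner pairs was 0 without WT 4 and WT 6 and 0 with the authors' normalized signal. The fit with the replicate number as a block also left out dblGATA 7, which has no WT library of its number. In it 3 of the 38 (Rad50, Topbp1 and Fanci) and 2.99% of all genes were higher, against 4 of the 38 and 1.87% of all genes without dblGATA 7 and with no block. Same-numbered libraries of the 2 genotypes did not deviate together (correlation of their deviations -0.106 to 0.0609, and no library correlated best with its own number), so the numbers were not treated as pairs.

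The sign of some log2 fold changes turned. With the proliferation score they were Brca1 -0.019, Bard1 -0.0065, Rad51ap1 -0.23, Polq -0.060, Eme1 -0.14, Chek1 -0.26, Exo1 -0.24, Fancc -0.074, Xrcc2 -0.028 and Rad51d -0.027, and with that score in DESeq2 Brca1 -0.026, Bard1 -0.0019, Rad51ap1 -0.23, Polq -0.070, Eme1 -0.14, Chek1 -0.26, Exo1 -0.24, Fancc -0.073, Xrcc2 -0.030 and Rad51d -0.029. With the basal score they were Rad54l -0.019, Brca1 -0.11, Bard1 -0.058, Rad51ap1 -0.15, Polq -0.060, Eme1 -0.41, Chek1 -0.14, Exo1 -0.21, Fancg -0.13, Fancc -0.11 and Rad51d -0.025. With the muscle score they were Rad51ap1 -0.041, Chek1 -0.15, Fancg -0.014, Fancb -0.11, Atr -0.073, Fancc -0.012, Xrcc2 -0.092, Fancf -0.031, Fance -0.033 and Rad51d -0.028. With Rn18s they were Rad51c 0.0038 and Fancc -0.0065, with upper-quartile factors Fancc -0.021 and Rad51d -0.0071, with the authors' normalized signal Fancl 0.062 and Rad51d -0.019, with the replicate block Rad51d -0.0011, and without WT 4 and WT 6 Fancc -0.031 (DESeq2 -0.026). Left out singly, WT 2 gave Ube2t 0.044, WT 4 Fancc -0.020 and dblGATA 6 Fancc -0.00061 and Rad51d -0.0034. Over all 13 such fits Fancc ran from -0.020 to 0.028 and Rad51d from -0.0034 to 0.060, and Ube2t from -0.074 to 0.044. The genotypes did not overlap in the proliferation score or in the basal score. The cause was not tested. Of these genes, only Brca1 and Rad54l had passed the test. Each of the 38 genes had at least 85 counts in every library.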
